A study of Mus musculus with 8 samples.

Results

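The comparison described here asks whether the first 2 h of the response to JQ1 differed between a pair of mouse lymphoma lines. For every gene it takes the log2 change with JQ1 in line #1.2 and subtracts the log2 change with JQ1 in line #1.1 (the interaction of line and drug, called the difference below). All 8 of the 8 RNA-seq libraries of the series entered it. A positive difference means that the level after JQ1, relative to DMSO, was higher in line #1.2 than in line #1.1, and a negative one that it was lower.

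Both lines are Eμ-Myc B cell lymphomas of C57BL/6 mice, in which a Myc transgene is under the immunoglobulin heavy chain enhancer. Early passage cells received JQ1 at 250 nM or its solvent DMSO for 2 h, which gave 4 groups of 2 libraries each: line #1.1 with DMSO, line #1.1 with JQ1, line #1.2 with DMSO and line #1.2 with JQ1. Each line stands for 1 lymphoma line, so a difference between them describes these lines and no class of lymphoma. The labels do not say that the 2 libraries of a group came from separate cultures, and p-values therefore rest on how far these libraries varied, possibly for technical reasons alone.

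JQ1 occupies the acetyl-lysine pocket of the BET bromodomain proteins and displaces them from acetylated chromatin. BET proteins help to bring the elongation factor P-TEFb to promoters and enhancers, so many lymphoid identity genes are lowered by the drug within hours, while P-TEFb is also released from its inhibitor HEXIM1 and other genes rise. Which genes a BET inhibitor lowers or raises in a given cell depends on the enhancers and promoters that are active there.

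The libraries held 10347453 to 13049877 reads assigned to genes. Summed over 8 B lineage markers, levels were 1350 to 2310 CPM (reads of a gene scaled to the library total) in every library, whereas 5 of 8 T cell, 3 of 5 NK cell, 3 of 8 myeloid, 2 of 4 erythroid and 6 of 7 stromal and endothelial markers had no read in any library, and the summed level of each of these lists was at most 2.26 CPM. The 2 libraries of line #1.1 with DMSO stood apart from each other more than those of the other groups: the chi-square statistic of their counts over genes was 4.1 per degree of freedom, against 1.36 for line #1.1 with JQ1, 1.8 for line #1.2 with DMSO and 2.13 for line #1.2 with JQ1. Every difference below uses these 2 control libraries, and in bulk RNA fewer cells of a type and less RNA per cell cannot be told apart.

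The drug changed 6334 of 12413 genes tested in line #1.1 (51%) and 6136 in line #1.2 (49.4%) at an adjusted p under 0.05 by edgeR's quasi-likelihood test with Benjamini-Hochberg adjustment, the test used throughout. Of the 4990 genes called in both lines, 4985 moved in the same direction. The 2419 that rose in both had a median log2 change of 0.43 in line #1.1 and 0.42 in line #1.2, and the 2566 that fell in both had medians of -0.57 and -0.55. The 2 effects share no library, but both are part of the comparison, so their likeness is given as a description.

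The difference itself passed the threshold for 14 genes (0.113%), 10 of them with a higher effect in line #1.2 (0.0806%) and 4 with a lower one (0.0322%). Without an adjustment, 1000 genes had p under 0.05 (8.06%), 509 with a higher effect in line #1.2 (4.1%) and 491 with a lower one (3.96%). The 14 were the protein-coding genes Plxnc1, Tspoap1, Adam19, Rbm34, Scml4, Ankrd37 and Bhlhe41, the light chain segment Iglv1, the snoRNA gene Gm26397, the long noncoding RNA gene Gm42418 of the ribosomal RNA locus, and 4 genes annotated as miRNAs (Mir6240, Gm24187, Gm24245 and Gm24270).

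**Figure D1:**
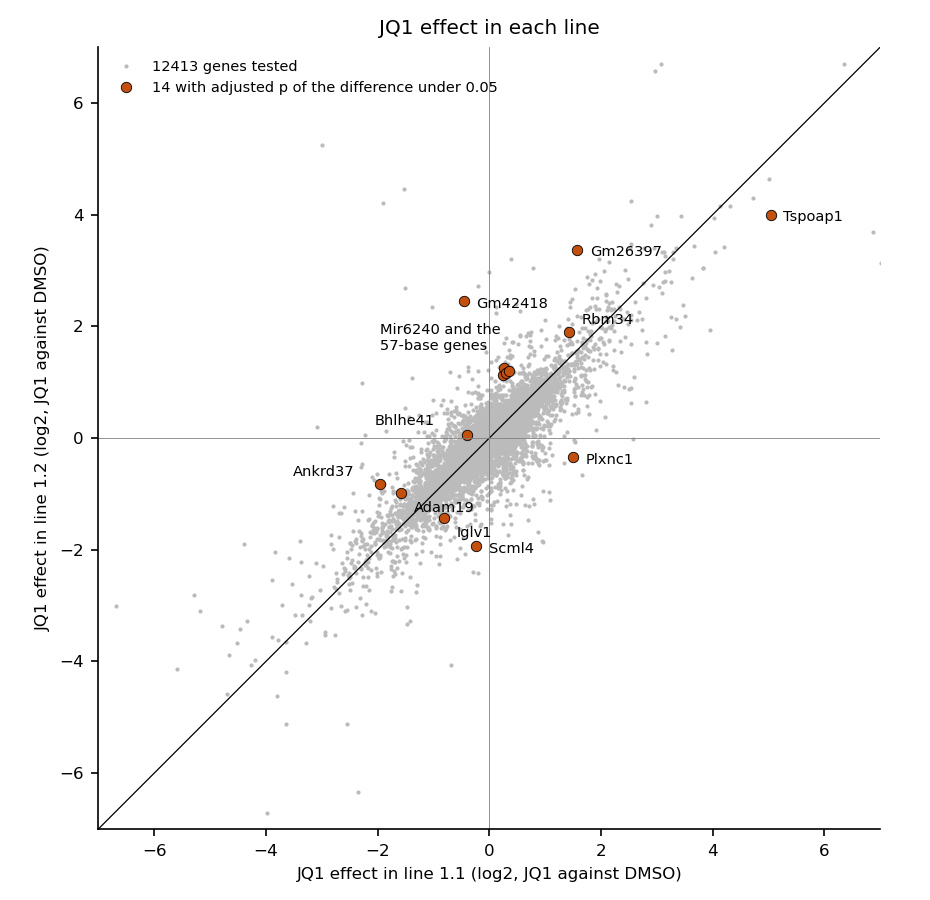
JQ1 effect on each of 12413 genes in line #1.1 (horizontal axis) and line #1.2 (vertical axis), as log2 of JQ1 against DMSO; the diagonal marks equal effects, and 3 genes beyond a log2 of 7 are not shown. Grey points follow the diagonal, and the 14 genes with an adjusted p of the difference under 0.05 are drawn in orange, Plxnc1 at 1.51 and -0.35 and Gm42418 at -0.46 and 2.45.

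How small a difference the data could bound depended on the level of a gene. The median standard error (SE) of the difference was 0.13 over all genes tested and 0.11 over the 9382 genes whose mean reached 5 CPM. The 95% interval of the difference lay within a 2-fold range in either direction for 9823 genes (79.1%), and for 9257 of the 9382 genes at 5 CPM or more (98.7%). A narrower range of 1.5-fold held the interval for 8103 genes (65.3%), or 8095 of the 9382 (86.3%). The number of calls moved with single libraries: without library 1 of line #1.1 with DMSO 445 genes passed and without library 2 of that group 42 did, with all 14 genes among them both times, and without any 1 of the other 6 libraries 7 to 19 passed.

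**Figure D2:**
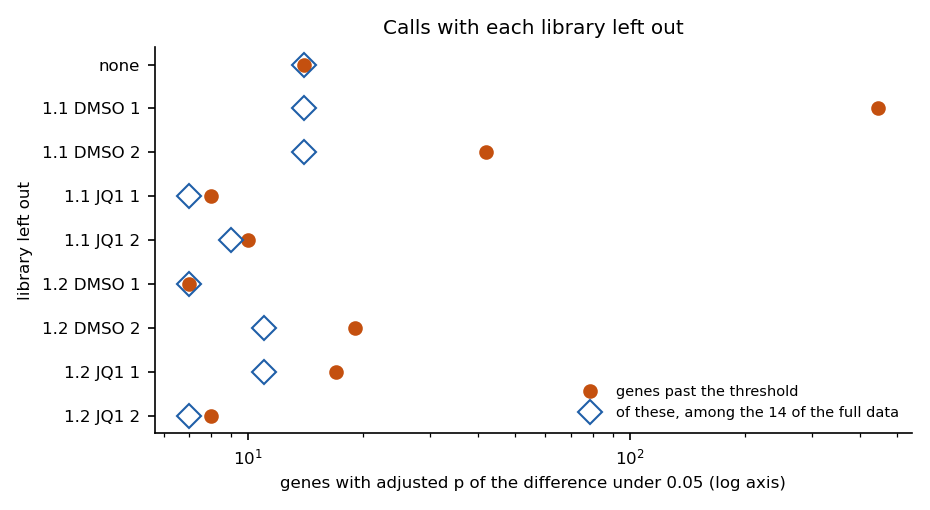
Number of genes with an adjusted p of the difference under 0.05 (log axis) with no library or each library left out in turn; circles give all such genes and diamonds those among the 14 of the full data. The count was 445 without library 1 and 42 without library 2 of line #1.1 with DMSO, and between 7 and 19 without any other library.

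Of the 14 genes, 7 passed with every library left out in turn: Plxnc1, Tspoap1, Adam19, Rbm34, Scml4, Gm26397 and Gm42418. With the log2 level of Gm42418 as a covariate, which leaves 1 residual degree of freedom fewer and cannot be read for that gene, the call held for Plxnc1 and Adam19 and was lost for the other 11, with the same sign in each. The difference then was -1.92 for Scml4 and 1.91 for Gm26397, no smaller than without the covariate, whereas it was -0.19 for Iglv1 and 0.36 for Gm24245. A robust estimate of the spread ended the calls of Ankrd37, Bhlhe41, Gm42418 and the 4 miRNA-annotated genes (adjusted p from 0.0996 to 0.643), and limma-voom those of Ankrd37, Bhlhe41, Gm24245 and Iglv1 (0.0566 to 0.0733). Against a null of a 1.5-fold change, Plxnc1 and Gm42418 passed.

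Plxnc1 encodes plexin C1, a receptor for the semaphorin SEMA7A with roles in cell adhesion and migration (chr10:94790866-94944835, minus strand, GRCm38). Its level in line #1.1 was 156 and 161 CPM with DMSO and 453 and 446 CPM with JQ1, and in line #1.2 it was 5.96 and 7.04 CPM with DMSO and 4.84 and 5.41 CPM with JQ1. The JQ1 libraries of line #1.1 lay above their controls, all 4 libraries of line #1.2 lay far below line #1.1, and there the JQ1 libraries lay just below the controls. Plxnc1 rose 2.84-fold in line #1.1 (log2 1.51 ± 0.05 SE, adjusted p = 7.35e-18), while in line #1.2 its log2 change of -0.35 ± 0.16 did not pass (adjusted p = 0.0911). The difference was -1.85 ± 0.17 (95% interval -2.19 to -1.51, adjusted p = 8.39e-07), and it lay between -1.96 and -1.72 with each library left out. Line #1.2 still gave 55 to 85 reads per library for the gene.

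Of 14 semaphorins, plexins and neuropilins tested, Plxnc1 was the 1 with p under 0.05 before adjustment, against 8.06% of all genes. The median difference was 0.09 against 0.0042 over all genes. Plxnd1 had 4.1 and 4.21 CPM with DMSO and 11 and 12.3 CPM with JQ1 in line #1.1, and 5.05 and 4.06 CPM against 13.5 and 15.6 CPM in line #1.2. It rose in both lines, by 1.48 and 1.68, with an interval of the difference from -0.30 to 0.69. Sema4d, a semaphorin of lymphocytes, fell in both lines, by 0.58 and 0.40. The SEMA7A gene Sema7a was at 0.745 to 2.20 CPM and did not pass in either line.

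Scml4, a member of the Scm-like family of Polycomb-related genes (chr10:42860370-42960780, plus strand), showed the opposite arrangement. In line #1.1 it was at 8.89 and 9.66 CPM with DMSO and 8.10 and 7.57 CPM with JQ1, and in line #1.2 at 9.12 and 7.62 CPM with DMSO and 2.20 and 2.13 CPM with JQ1. The controls of the lines overlapped, and the 2 JQ1 libraries of line #1.2, with 25 and 24 reads, lay below the other 6. Scml4 fell in line #1.2 (log2 -1.94 ± 0.20, adjusted p = 2.60e-08), while its change of -0.24 ± 0.15 in line #1.1 did not pass (adjusted p = 0.195). The difference was -1.71 ± 0.26 (95% interval -2.24 to -1.17, adjusted p = 0.00177). DESeq2 without its filter on low means, chosen after seeing the data, did not call it (adjusted p = 0.0783).

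Of 29 Polycomb and MBT domain genes tested, Scml4 was the 1 with p under 0.05 before adjustment, against 8.06% of all genes. The median difference of the list was 0.01. The MBT domain gene L3mbtl3 fell in both lines, by 1.13 in line #1.1 and 1.40 in line #1.2. Scmh1 fell by 1.11 and 0.86. The core PRC2 subunit genes Ezh2, Suz12 and Eed had differences of -0.05, -0.10 and 0.01, each with an interval inside a 2-fold range.

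Bhlhe41 encodes a basic helix-loop-helix repressor of the circadian clock, also called DEC2 (chr6:145858243-145865558, minus strand). Its level was 169 and 199 CPM with DMSO and 130 and 147 CPM with JQ1 in line #1.1, and 207 and 208 CPM with DMSO and 222 and 207 CPM with JQ1 in line #1.2. The JQ1 libraries of line #1.1 were the lowest of the 8. Bhlhe41 fell in line #1.1 (log2 -0.41 ± 0.07, adjusted p = 1.78e-05), its change of 0.05 ± 0.06 in line #1.2 did not pass (adjusted p = 0.556), and the difference was 0.46 ± 0.09 (adjusted p = 0.0447). The call was lost without library 1 of line #1.1 with JQ1 (0.37, adjusted p = 0.624) and without any of the 4 libraries of line #1.2, where the difference lay between 0.41 and 0.51 with adjusted p from 0.150 to 0.380.

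**Figure D3:**
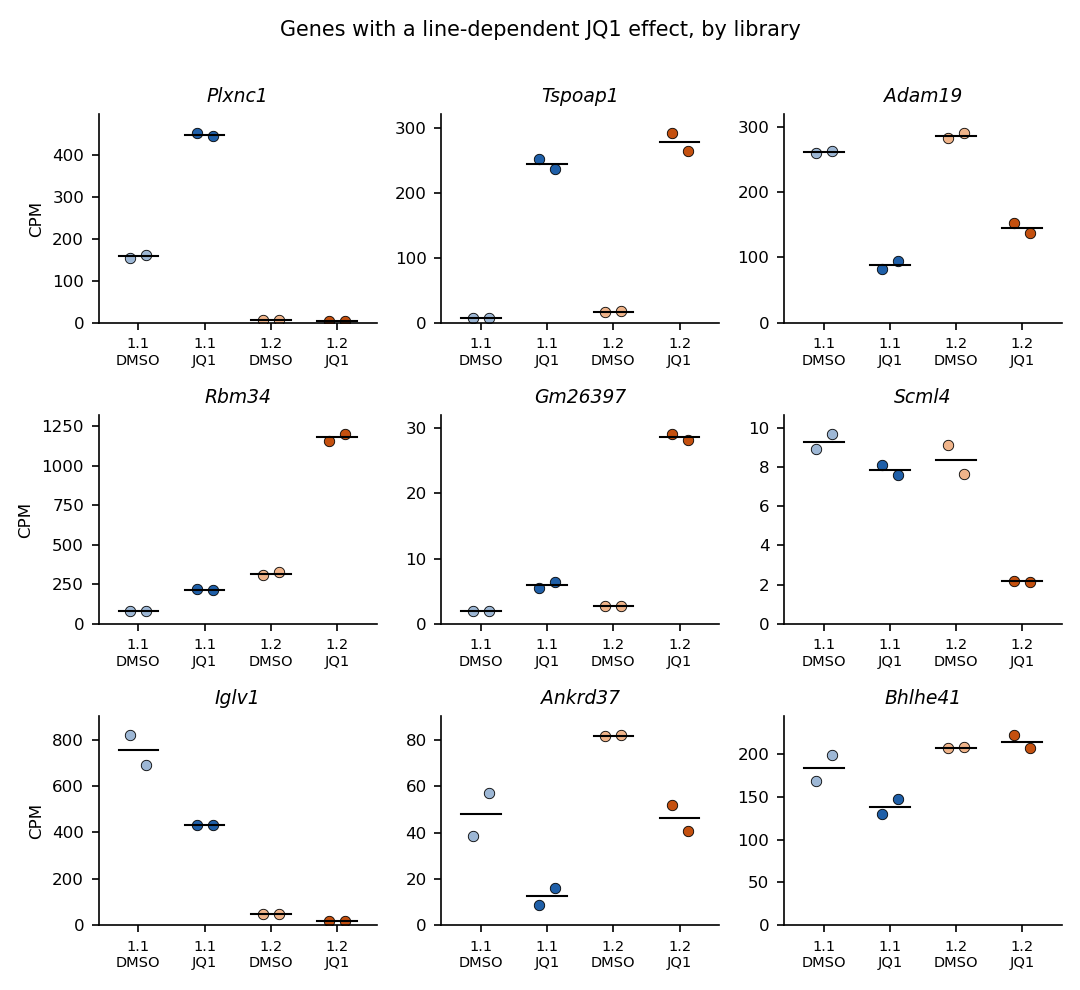
Levels in CPM (linear axes from 0) of 9 genes with a line-dependent JQ1 effect in each of the 8 libraries; points are libraries and bars the means of 2. Plxnc1 stands at 446 to 453 CPM in line #1.1 with JQ1 and below 10 CPM in line #1.2, Rbm34 and Gm26397 are highest in line #1.2 with JQ1, and Scml4 is lowest there.

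Tspoap1, whose product is a scaffold that binds RIM proteins and the translocator protein TSPO, was among the genes that rose most with JQ1 (chr11:87760541-87785928, plus strand). It was at 6.99 and 8.03 CPM with DMSO and 252 and 237 CPM with JQ1 in line #1.1, and at 16.3 and 18.5 CPM with DMSO and 292 and 265 CPM with JQ1 in line #1.2. The controls of line #1.2 lay above those of line #1.1, and the JQ1 libraries of both lines reached similar levels, with those of line #1.2 slightly higher. Tspoap1 rose 32.8-fold in line #1.1 and 15.9-fold in line #1.2, a difference of -1.04 ± 0.14 in log2 (95% interval -1.34 to -0.75, adjusted p = 7.19e-04). Its neighbours on the chromosome, Mir142hg, Supt4a and Mks1, had differences of -0.16, -0.01 and 0.15, none with p under 0.05.

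Adam19 encodes a membrane-anchored metalloprotease, also called meltrin beta (chr11:46055992-46147343, plus strand). Its level was 259 and 263 CPM with DMSO and 81.6 and 94.2 CPM with JQ1 in line #1.1, and 282 and 290 CPM with DMSO and 152 and 137 CPM with JQ1 in line #1.2. The JQ1 libraries lay below the controls in both lines, and those of line #1.2 above those of line #1.1. Adam19 fell in both, to 0.336 of the control in line #1.1 and to 0.505 in line #1.2, and the difference was 0.59 ± 0.08 (95% interval 0.41 to 0.76, adjusted p = 0.00107). None of the other 8 ADAM, ADAMTS and TIMP genes tested had p under 0.05 before adjustment, against 8.06% of all genes. Adam17 had a difference of -0.09 and Adam10 of -0.03, with intervals of -0.25 to 0.07 and -0.18 to 0.12.

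Rbm34, which encodes a nucleolar RNA-binding protein, differed between the lines both before and after the drug (chr8:126947172-126971071, minus strand). It was at 80.6 and 81.2 CPM with DMSO and 220 and 213 CPM with JQ1 in line #1.1, and at 311 and 326 CPM with DMSO and 1160 and 1200 CPM with JQ1 in line #1.2. The controls of line #1.2 already lay above the JQ1 libraries of line #1.1. Rbm34 rose 2.68-fold in line #1.1 and 3.71-fold in line #1.2, so the higher baseline went with the larger rise (difference 0.47 ± 0.07, 95% interval 0.33 to 0.61, adjusted p = 0.00121).

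Another called gene lies 2192 bases downstream of Rbm34 on the same strand. Gm26397, annotated as a snoRNA, sits in an intron of Tomm20 at chr8:126944847-126944980 (minus strand), and its 134 bases in GENCODE M21 are shown because reads over so short a gene can come from a longer transcript that passes through it.
Gm26397: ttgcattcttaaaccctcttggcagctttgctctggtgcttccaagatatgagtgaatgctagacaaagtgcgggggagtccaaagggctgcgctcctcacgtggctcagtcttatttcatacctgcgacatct
It was at 2.05 and 1.91 CPM with DMSO and 5.54 and 6.38 CPM with JQ1 in line #1.1, and at 2.80 and 2.73 CPM with DMSO and 29.0 and 28.1 CPM with JQ1 in line #1.2. The 2 JQ1 libraries of line #1.2, with 330 and 317 reads, stood above the other 6, which held 20 to 70. The gene rose 2.98-fold in line #1.1 and 10.3-fold in line #1.2 (difference 1.79 ± 0.30, 95% interval 1.18 to 2.40, adjusted p = 0.00571). The host gene Tomm20, which encodes an import receptor of the mitochondrial outer membrane, was at 279 to 319 CPM in the controls of both lines and 316 to 341 CPM after JQ1, with a difference of 0.18 ± 0.07 (adjusted p = 0.578). How many of the Gm26397 reads came from transcripts that run on past the end of Rbm34 was not tested.

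Iglv1, a variable segment of the lambda light chain, was another gene with different baselines (chr16:19085017-19085500, minus strand). It was at 819 and 689 CPM with DMSO and 431 and 433 CPM with JQ1 in line #1.1, and at 47.6 and 47.5 CPM with DMSO and 18.4 and 16.8 CPM with JQ1 in line #1.2. All libraries of line #1.2 lay below those of line #1.1, and JQ1 libraries lay below controls in each. Iglv1 fell to 0.573 of the control in line #1.1 and to 0.370 in line #1.2 (difference -0.63 ± 0.12, adjusted p = 0.0233). The call was lost without any 1 of the 6 libraries other than the controls of line #1.1 (differences of -0.57 to -0.70, adjusted p from 0.0684 to 0.320), and it was kept without library 1 (-0.76) or library 2 (-0.52) of those controls. The kappa constant gene Igkc had the reverse baseline, 626 and 670 CPM in the controls of line #1.1 and 1780 and 1670 CPM in those of line #1.2. Its effects of -0.34 and -0.22 did not differ beyond their error (interval -0.02 to 0.26). Light chain segments resemble each other, so reads of one may be counted for another.

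Gm42418 and the 4 genes annotated as miRNAs had a higher effect in line #1.2, with different patterns over the libraries. Gm42418 overlaps, on the opposite strand, the annotated ribosomal RNA gene CT010467.1 on chromosome 17 (chr17:39846958-39848788): 97% of its runs of 25 bases occur in that gene in reverse complement. Gm24245 (chr4:139338304-139338360, plus strand) and Gm24270 (chr9:56223715-56223771, minus strand, in an intron of Peak1) have the same 57 bases, as does Gm23935 (chr16:11144125-11144181, plus strand, in an intron of Zc3h7a), and Gm24187 (chr13:9834469-9834525, minus strand) shares 56 of the 57 with them. The sequences from GENCODE M21 are shown since reads within stretches that these 57-base genes share match more than 1 of them. How such reads were counted is not given in the sources used here. The capital marks the base that differs (G11A, counted from 1 at the 5′ end of Gm24245), and for the miRNA of Mir6240, from RefSeq (GRCm38.p6), the seed.
Gm24245: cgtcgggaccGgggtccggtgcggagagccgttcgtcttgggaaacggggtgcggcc
Gm24187: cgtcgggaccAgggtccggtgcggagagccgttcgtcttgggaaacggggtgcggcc
mmu-miR-6240: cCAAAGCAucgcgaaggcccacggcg

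The levels of Gm42418 were 361 and 977 CPM with DMSO and 475 and 493 CPM with JQ1 in line #1.1, and 383 and 341 CPM with DMSO and 1300 and 2640 CPM with JQ1 in line #1.2. Library 2 of line #1.1 with DMSO stood above the other library of its group and above the JQ1 libraries of that line, and both JQ1 libraries of line #1.2 stood above all others. Gm42418 rose 5.45-fold in line #1.2 (log2 2.45 ± 0.27, adjusted p = 6.63e-08), its change of -0.46 ± 0.26 in line #1.1 did not pass (adjusted p = 0.148), and the difference was 2.91 ± 0.37 (95% interval 2.13 to 3.68, adjusted p = 3.78e-04). Without library 2 of line #1.1 with DMSO the effect in line #1.1 was 0.42 (adjusted p = 0.0374) and the difference 2.02. DESeq2 with its filter on low means kept the call of the difference (2.92, adjusted p = 0.0453). The call was lost with DESeq2 without that filter, chosen after seeing the data (2.92, adjusted p = 0.654). It was also lost with a robust estimate of the spread (2.91, adjusted p = 0.583). The neighbouring gene Gm26917, 617 bases away, rose in both lines, by 0.56 and 0.87, with a difference of 0.30 (adjusted p = 0.582).

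Gm24245 was at 47.0 and 51.2 CPM with DMSO and 62.8 and 62.7 CPM with JQ1 in line #1.1, and at 27.5 and 41.9 CPM with DMSO and 69.8 and 91.6 CPM with JQ1 in line #1.2. Its lowest library was library 1 of line #1.2 with DMSO and its highest library 2 of line #1.2 with JQ1. Mir6240 (chr5:114851948-114852064, plus strand) was at 77.1, 76.5, 98.2 and 87.0 CPM in line #1.1 and at 40, 72.8, 123 and 149 CPM in line #1.2, in the same order of groups. The lowest and the highest library were the same as for Gm24245. The differences were 0.85 ± 0.17 for Gm24245 (adjusted p = 0.0420), 0.87 ± 0.17 for Gm24270 (0.0345), 0.88 ± 0.16 for Gm24187 (0.0233) and 0.99 ± 0.19 for Mir6240 (0.0306). Gm23935 missed the threshold, with 0.93 (adjusted p = 0.0520).

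These 4 calls were not kept in every fit with a library left out. Each was lost without library 1 or library 2 of line #1.1 with JQ1, library 1 of line #1.2 with DMSO or library 2 of line #1.2 with JQ1. Without library 1 of line #1.2 with DMSO the difference was 0.59 for Gm24245 (adjusted p = 0.314) and 0.63 for Mir6240 (0.0638). Over the 8 fits with a library left out it ranged from 0.59 to 1.19 for Gm24245, 0.56 to 1.30 for Gm24270, 0.60 to 1.26 for Gm24187 and 0.63 to 1.497 for Mir6240, always above 0. Of 21 genes annotated as miRNAs, 7 had a higher and 1 a lower effect in line #1.2 at p under 0.05 before adjustment (38.1%, against 8.06% of all genes). Some of them share sequence, as shown above, so they are not separate observations. These are reads assigned to the annotated loci, and whether they came from mature miRNAs was not tested.

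Rmrp, the RNA of the ribonuclease MRP, had 4 and 30 reads in line #1.1 with DMSO, 2 and 2 with JQ1, 1 and 1 in line #1.2 with DMSO and 3 and 80 with JQ1. Rpph1, the RNA of ribonuclease P, was at 1.14 and 3.35 CPM, then 0.661 and 1.46 CPM in line #1.1, and at 1.35 and 0.828 CPM, then 1.76 and 9.40 CPM in line #1.2. Both were high in library 2 of line #1.1 with DMSO and library 2 of line #1.2 with JQ1, the libraries with the most Gm42418 within their groups. The 4 genes annotated as miRNAs did not share the high level in library 2 of line #1.1 with DMSO, where Mir6240 was at 76.5 CPM against 77.1 CPM in library 1. The differences of Rmrp and Rpph1 did not pass (adjusted p = 0.0996 and 0.217). The part of these 2 libraries in the differences of Gm42418, Rmrp and Rpph1 was not tested.

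**Figure D4:**
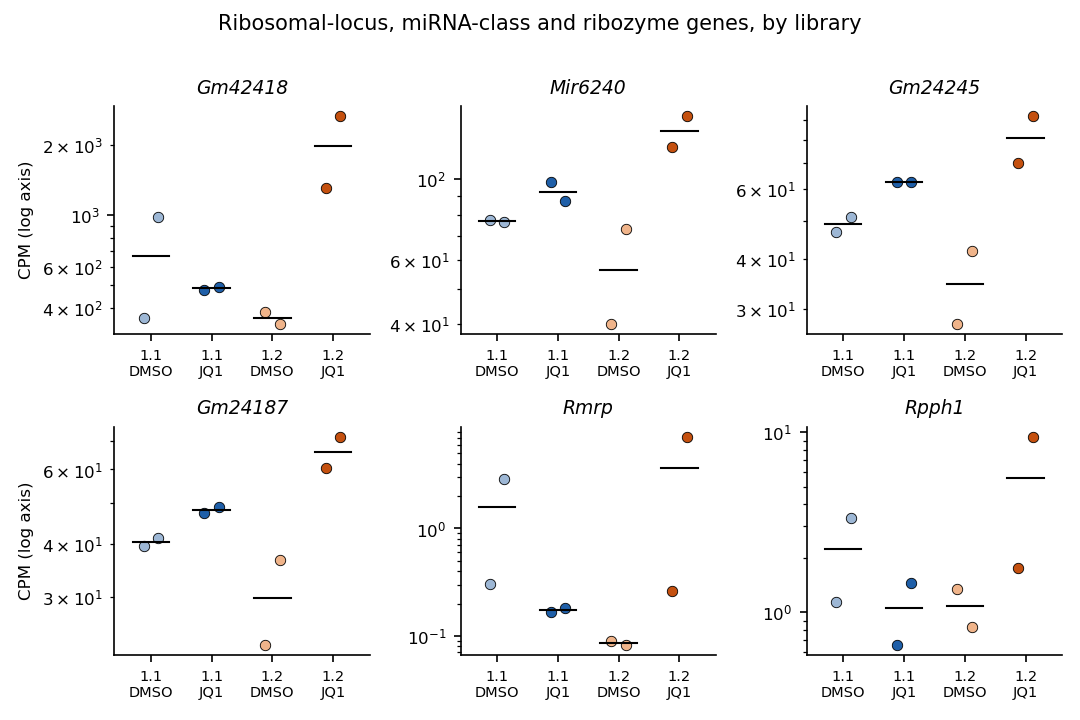
Levels in CPM (log axes) of 6 noncoding genes in each of the 8 libraries; points are libraries and bars the means of 2. Gm42418 is highest in line #1.2 with JQ1 (1300 and 2640 CPM) and next in library 2 of line #1.1 with DMSO (977 CPM), and Rmrp and Rpph1 are high in library 2 of those 2 groups.

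Of the 21 genes of the mitochondrial genome tested, 9 had a lower and 1 a higher effect in line #1.2 at p under 0.05 before adjustment (47.6%, against 8.06% of all genes), and the median difference was -0.14, but none passed the threshold after adjustment. mt-Nd3, a subunit of respiratory complex I, was at 244 and 220 CPM with DMSO and 267 and 266 CPM with JQ1 in line #1.1, and at 236 and 233 CPM with DMSO and 207 and 220 CPM with JQ1 in line #1.2. It rose in line #1.1, by 0.20, and fell in line #1.2, by 0.13, with a difference of -0.33 ± 0.07 (adjusted p = 0.0955). mt-Co3, of cytochrome c oxidase, had 3100 and 2890 CPM against 3400 and 3460 CPM in line #1.1 and 3220 and 3100 CPM against 3010 and 3100 CPM in line #1.2 (difference -0.24, adjusted p = 0.148). The 1 with a higher effect was the ribosomal RNA gene mt-Rnr1 (0.23). With each library left out the number lower was 4 to 12 and the median stayed below 0, between -0.20 and -0.08.

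Ankrd37 is a small ankyrin repeat gene and a known target of the hypoxia-inducible factors (HIF), which bind the core sequence ACGTG. The gene (chr8:45996902-46005707, minus strand) overlaps Ufsp2 and Lrp2bp on the other strand. Its RefSeq promoter window (GRCm38.p6, chr8:45999801-46000100, minus strand) is shown with its 2 copies of ACGTG in capitals.
Ankrd37: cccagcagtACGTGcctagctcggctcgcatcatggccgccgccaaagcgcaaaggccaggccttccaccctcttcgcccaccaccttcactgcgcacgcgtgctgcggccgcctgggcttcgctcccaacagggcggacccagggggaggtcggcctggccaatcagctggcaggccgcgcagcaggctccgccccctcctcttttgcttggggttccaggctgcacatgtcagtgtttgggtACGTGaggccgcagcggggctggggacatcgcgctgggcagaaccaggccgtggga

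ACGTG on either strand, which includes every CACGTG E-box, occurs in 6447 of 32851 RefSeq promoter windows of this length (19.6%). It occurs in 20 of the 38 windows (52.6%) found for 23 of the 26 hypoxia-response genes tested. For the members with an unadjusted p of the difference under 0.05 it occurs in 7 of the 13 windows (53.8%) found for 8 of them. Among other called genes ACGTG occurs in the window of Bhlhe41 and in windows of Adam19, but not in those of Plxnc1 and Rbm34. Ankrd37 was at 38.7 and 57.2 CPM with DMSO and 8.76 and 16.0 CPM with JQ1 in line #1.1, and at 81.7 and 82.0 CPM with DMSO and 51.8 and 40.7 CPM with JQ1 in line #1.2. The controls of line #1.2 were the highest libraries and the JQ1 libraries of line #1.1 the lowest. Ankrd37 fell to 0.258 of the control in line #1.1 and to 0.566 in line #1.2, with a difference of 1.13 ± 0.23 (95% interval 0.66 to 1.60, adjusted p = 0.0420). The call was lost without library 1 of line #1.1 with JQ1 (0.75, adjusted p = 0.763) and without any 1 of the 4 libraries of line #1.2 (differences of 0.95 to 1.30, adjusted p from 0.0561 to 0.380). It was kept without either control of line #1.1, at 1.41 without library 1 and 0.84 without library 2.

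Of the 26 hypoxia-response genes, 1 passed the threshold (Ankrd37), and 8 had a higher and 1 a lower effect in line #1.2 at p under 0.05 before adjustment, against 4.1% and 3.96% of all genes. The difference was above 0 for 19 of the 26, with a median of 0.15 against 0.0042 over all genes. Hk2, which encodes the glycolytic enzyme hexokinase 2, was at 120 and 117 CPM with DMSO and 117 and 127 CPM with JQ1 in line #1.1, and at 126 and 143 CPM with DMSO and 184 and 166 CPM with JQ1 in line #1.2. It rose in line #1.2, by 0.38, and its change of 0.04 in line #1.1 did not pass (difference 0.34 ± 0.09, adjusted p = 0.206). Slc2a1, the glucose transporter GLUT1, and Ddit4, an inhibitor of mTORC1, rose in both lines, with differences of 0.29 and 0.30. P4ha1 (0.33), Ak4 (0.56), Kdm3a (0.28) and Ero1l (0.22) were the others with a higher effect, and Pgk1, of glycolysis, was the 1 with a lower effect (-0.19). Apart from Ankrd37, none of these differences passed after adjustment.

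The hypoxia-response genes also differed within groups. For all 8 with a higher effect, Ankrd37 included, library 1 lay below library 2 in line #1.1 with JQ1 (ratios of 0.547 to 0.944) and above it in line #1.2 with JQ1 (1.03 to 1.27). With each library left out the median of the list stayed between 0.09 and 0.24, with 16 to 20 of the 26 differences above 0. Fewer had a higher effect at p under 0.05 without library 1 of line #1.1 with JQ1 or library 1 of either line #1.2 group. More did without library 1 of line #1.1 with DMSO. The number of all genes at p under 0.05 moved the same way in each of these fits. Without library 2 of either line #1.1 group the list and all genes moved in opposite directions. Without library 2 of either line #1.2 group the number in the list was unchanged, while that over all genes fell. The part of these within-group differences in the result was not tested.

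**Figure D5:**
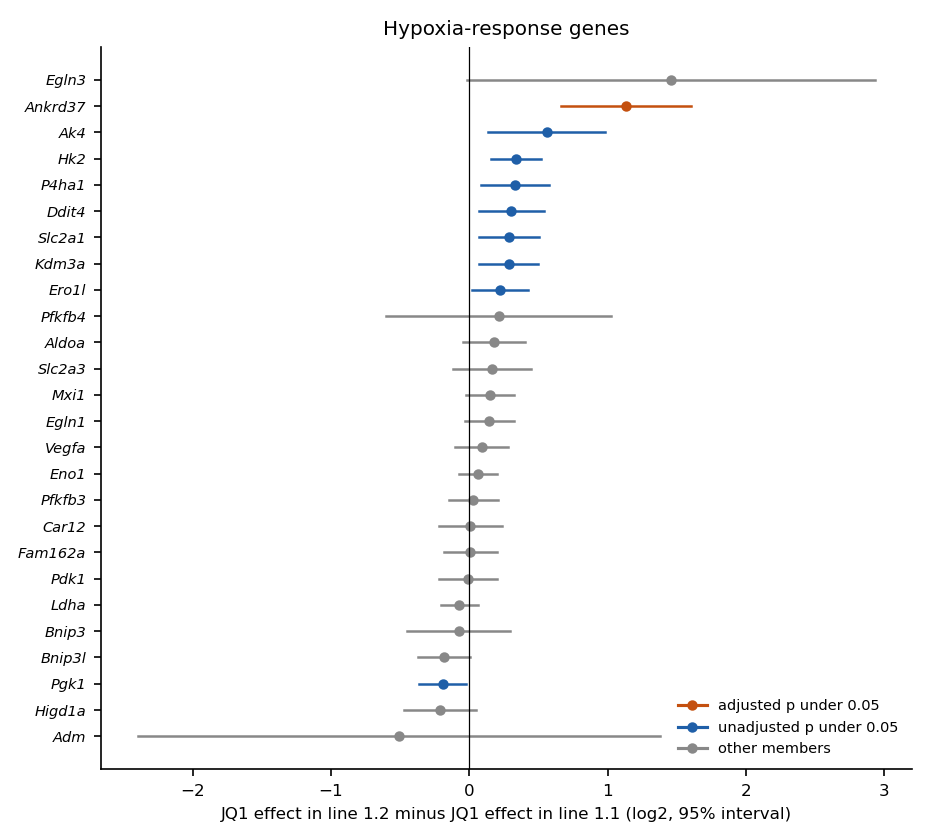
Difference of the JQ1 effects (line #1.2 minus line #1.1, log2) with its 95% interval for the 26 hypoxia-response genes tested; orange marks an adjusted p under 0.05, blue an unadjusted p under 0.05 and grey the other members. Ankrd37 lies at 1.13, and 19 of the 26 points lie above 0.

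No B cell transcription factor gene passed the test of the difference. Of 22 B cell transcription factor genes, 4 had a higher and none a lower effect in line #1.2 at p under 0.05 before adjustment, against 4.1% and 3.96% of all genes. Of the 22 differences 19 were above 0, and the median was 0.10. Ikzf1, which encodes Ikaros, was at 638 and 597 CPM with DMSO and 250 and 264 CPM with JQ1 in line #1.1, and at 624 and 614 CPM with DMSO and 316 and 298 CPM with JQ1 in line #1.2. The controls overlapped, and the JQ1 libraries of line #1.1 lay below those of line #1.2. Ikzf1 fell by 1.26 and 1.01, a difference of 0.25 ± 0.07 (adjusted p = 0.219). The others were Ikzf3 (0.21), which encodes Aiolos, Myb (0.23) and Mef2c (0.20). Pax5, Ebf1 and Foxo1 had differences of 0.13, 0.06 and 0.01, with intervals inside a 1.5-fold range. With each library left out the median of the list was 0.06 to 0.14. The number with a higher effect was largest without library 1 of line #1.1 with DMSO. There p under 0.05 was also most frequent over all genes.

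Among 28 B cell receptor and coreceptor genes, 4 had a higher and 1 a lower effect at that level, against 4.1% and 3.96% of all genes (median 0.08). With each library left out the median was 0.04 to 0.10. The number with a higher effect was again largest without library 1 of line #1.1 with DMSO, where p under 0.05 was most frequent. Cd22, an inhibitory coreceptor, was at 135 and 142 CPM against 39.9 and 43.4 CPM in line #1.1 and at 170 and 165 CPM against 64.3 and 58.9 CPM in line #1.2. It fell by 1.73 and 1.44 (difference 0.29 ± 0.09, adjusted p = 0.355). Cd79a and Blnk had differences of 0.15 and 0.21. The 1 with a lower effect was Ms4a1, which encodes CD20: it was at 1.07 to 1.73 CPM in all 4 libraries of line #1.1, and at 8.03 and 6.96 CPM with DMSO and 3.17 and 3.55 CPM with JQ1 in line #1.2. Ms4a1 fell in line #1.2, by 1.15, and its change of 0.08 in line #1.1 did not pass (difference -1.23 ± 0.42, adjusted p = 0.434).

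Of 34 genes of ribosome biogenesis and the nucleolus, Rbm34 passed the threshold, and 7, Rbm34 included, had a higher and none a lower effect in line #1.2 at p under 0.05 before adjustment, against 4.1% and 3.96% of all genes. The median difference was 0.07. Polr1a, the largest subunit of RNA polymerase I, was at 267 and 273 CPM against 279 and 279 CPM in line #1.1 and at 255 and 253 CPM against 296 and 302 CPM in line #1.2. It rose in line #1.2, by 0.24 (difference 0.19 ± 0.06, adjusted p = 0.435). Mybbp1a, Polr1e, Nolc1, Ppan and Rrp12 had differences of 0.14 to 0.24. Without library 1 of line #1.1 with DMSO the median was 0.0096, with 18 of the 34 differences above 0. Without library 2 of that group it was 0.09, with 32 of the 34 above 0. The 64 cytosolic ribosomal protein genes had 0 higher and 6 lower at that level (median -0.05), against 4.1% and 3.96% of all genes, with Rps14 (-0.24) and Rpl24 (-0.23) among the 6. With a library left out the median of the ribosomal protein genes lay between -0.08 and -0.01. The numbers higher and lower were both largest without library 1 of line #1.1 with DMSO. There p under 0.05 was also most frequent over all genes.

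No gene of 5 other lists had p under 0.05 before adjustment, against 8.06% of all genes. These were 15 checkpoint and costimulatory genes, 13 interferon response genes, 20 genes of MHC class I presentation, 18 of the NF-kB pathway and 28 of the BET proteins, P-TEFb and elongation. Their median differences were 0.02, 0.0089, -0.02, 0.07 and 0.04. With a library left out, the median of the last list was 0.01 to 0.07. The number of its genes with a higher effect at that level was largest without library 1 of line #1.1 with DMSO. There p under 0.05 was also most frequent over all genes. Hexim1, the inhibitor of P-TEFb and a common marker of BET inhibition, was at 138 and 139 CPM against 344 and 329 CPM in line #1.1 and at 127 and 128 CPM against 315 and 327 CPM in line #1.2. It rose by 1.28 and 1.33, and the interval of the difference, -0.09 to 0.19, excluded a 1.5-fold difference. Cd274, which encodes PD-L1, was at 1.44 and 1.63 CPM against 0.991 and 0.638 CPM in line #1.1 and at 2.26 and 3.31 CPM against 1.41 and 0.975 CPM in line #1.2. It fell in line #1.2, by 1.23, and its change of -0.88 in line #1.1 did not pass. The difference of -0.34 had an interval from -1.47 to 0.78, which does not exclude a 2-fold lower effect in line #1.2.

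Myc, whose reads sum the transgene and the endogenous gene, was at 1430 and 1640 CPM against 2360 and 2320 CPM in line #1.1 and at 1420 and 1360 CPM against 2130 and 2190 CPM in line #1.2. It rose by 0.61 and 0.64 (interval of the difference -0.12 to 0.18). Il7r, the interleukin-7 receptor gene, fell in both lines (log2 -4.20 and -3.98), with an interval of the difference from -0.15 to 0.58. Bcl2l11, the gene of BIM, a BH3-only protein that promotes apoptosis, was at 40.2 and 40.8 CPM against 136 and 129 CPM in line #1.1 and at 47.4 and 46.9 CPM against 128 and 136 CPM in line #1.2. It rose by 1.71 and 1.49, with a difference of -0.23 ± 0.09 (adjusted p = 0.518). Of 13 BCL2 family genes tested, 1 had a higher and 3 a lower effect in line #1.2 at p under 0.05 before adjustment. Over all genes the shares were 4.1% and 3.96%. Pmaip1, which encodes NOXA, rose by 0.67 and 0.24 (difference -0.44, adjusted p = 0.323). The 1 with a higher effect was Bcl2l2, which encodes the survival protein BCL-W and was at 0.165 to 1.82 CPM (difference 3.27 ± 0.96, adjusted p = 0.318).

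The 5 genes called in both lines with opposite signs were mt-Tp, mt-Nd3, Cpeb2, Fabp5 and 9430091E24Rik, and none passed the test of the difference. Cpeb2, which encodes a regulator of polyadenylation and translation, was at 9.87 and 11.5 CPM with DMSO and 13.4 and 13.5 CPM with JQ1 in line #1.1, and at 39.0 and 40.9 CPM with DMSO and 30.3 and 32.3 CPM with JQ1 in line #1.2. The JQ1 libraries lay above the controls in line #1.1 and below them in line #1.2. Cpeb2 rose by 0.34 and fell by 0.35, with a difference of -0.70 ± 0.14 (adjusted p = 0.0520). Fabp5, a fatty acid binding protein gene, rose by 0.20 and fell by 0.18 (difference -0.38, adjusted p = 0.0996). The mitochondrial tRNA gene mt-Tp was just outside the threshold (-0.45, adjusted p = 0.0518).

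Gadd45b, a stress-response gene, was at 3.87 and 4.49 CPM against 20.2 and 18.4 CPM in line #1.1 and at 5.78 and 6.21 CPM against 14.3 and 14.9 CPM in line #1.2. It rose 4.65-fold and 2.43-fold (difference -0.93 ± 0.21, adjusted p = 0.0996). Klf2, a transcription factor of lymphocyte quiescence and homing, fell to 0.498 and 0.717 of the control (difference 0.53 ± 0.12, adjusted p = 0.117). Nav2 (0.98), Pstpip1 (1.41), Tmem229b (0.33) and Carm1 (0.32) also fell less in line #1.2, Coro1c (0.32) rose more there and Tmem64 (-0.35) less. None of these differences passed (adjusted p from 0.0848 to 0.118). Trp53inp1, a p53 target, fell in line #1.2, by 0.27, and its change of 0.03 in line #1.1 did not pass (difference -0.31, adjusted p = 0.115).

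Of the 447 genes whose effect averaged over both lines was a log2 of 1 or more, 260 (58.2%) had a smaller effect in line #1.2, with a median difference of -0.07. Of the 730 with an averaged effect of -1 or less, 425 (58.2%) fell less in line #1.2, with a median difference of 0.06. Genes are not independent replicates, so these shares have no test.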

How the data were processed

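RNA-seq was done on 8 libraries, 2 for each line and treatment (250 nM JQ1 or DMSO for 2 h). The authors deposited a table of raw gene counts, made with cutadapt 1.7, TopHat, Bowtie2 and HTSeq on GRCm38 (mm10), per the submitters' processing notes; strand setting and annotation release: not given in the sources used here. Of 43629 genes, 42462 had a symbol in GENCODE M21; 5 summary lines entered neither library sizes nor tests (reads with no feature were 12.3 to 14.4%, ambiguous reads 1.54 to 1.67%), and 0 columns lacked a sample. Depth was 10347453 to 13049877 gene reads, which limits the precision for genes with few reads.

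Counts were analysed with edgeR 4.0.16 in R 4.3.3 (filterByExpr with a minimum count of 10 and a total of 15, TMM scaling, quasi-likelihood F test on 4 group means with 4 residual degrees of freedom). Adjusted p are Benjamini-Hochberg values over all 12413 genes tested; 0.05 was the threshold. The script was tested on simulated data. Alternatives used other scalings, filters and thresholds, DESeq2 1.42.0, limma-voom (limma 3.58.1), a robust spread, a replicate block, Gm42418 as a covariate, a fold test and each library left out.

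Genes were named if they passed the threshold, were among the next 15 by p, were called in both lines with opposite signs, were 1 of the 2 first by p in a gene list with a mean of at least 1 CPM, or were on a fixed short list; neighbours, hosts, related small RNAs and other list members were named after their values were seen. The comparison and the gene lists were chosen with earlier results of these data known. A gene of the B cell receptor list is not reported here.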

Additional observations from a re-analysis of the deposited data

Results flagged for a closer look

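The interaction test found that the JQ1 effect differed between the lines for the 14 genes described above. The differences (line #1.2 minus line #1.1, log2) were -1.85 for Plxnc1, 2.91 for Gm42418, -1.04 for Tspoap1, 0.59 for Adam19, 0.47 for Rbm34, -1.71 for Scml4 and 1.79 for Gm26397, which passed with each library left out. They were 0.88 for Gm24187, -0.63 for Iglv1, 0.99 for Mir6240, 0.87 for Gm24270, 0.85 for Gm24245, 1.13 for Ankrd37 and 0.46 for Bhlhe41, which did not pass with every library left out. Groups of 2 libraries are too small for a check of single outlying samples.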

How the results depend on the processing

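No difference of the 14 genes changed sign under any alternative run. DESeq2 gave 279 genes at an unadjusted p under 0.05. Its filter on low means left 1105 genes with an adjusted p, so 9 of the 14 had none. With that filter 13 genes passed, 5 of them among the 14. The others were Cad, Eif4g1, Fabp5, Gm28437, Tmem229b, mt-Co3, mt-Nd3 and mt-Nd4l, which edgeR did not call in the main fit. Without that filter (chosen after seeing the data) 7 genes passed, 4 of them higher in line #1.2, with 3966 genes called in line #1.1 and 3776 in line #1.2, and 279 at an unadjusted p under 0.05. Limma-voom gave 10 genes, all among the 14. A robust spread gave 8 genes (3 higher), no filter on low counts 80 (48 higher, 32 lower), a filter of 5 CPM in 2 libraries 8 (4 higher) and a threshold of 0.01 7 (4 higher). The test against a 1.5-fold change gave 2 (1 higher, 1 lower), 105 at an unadjusted p under 0.05, and 1184 and 1082 genes in the lines. With a library left out 7 to 445 genes passed, 4 to 256 higher and 3 to 189 lower, and 671 to 2007 had an unadjusted p under 0.05. The cause was not tested.

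The labels do not say what libraries with the same replicate number share. Over 9382 genes the deviations of same-numbered libraries correlated between -0.0632 and 0.0551. A correlation over so many genes cannot show a pairing that touched a part of them. The replicate block gave 26 genes (20 higher), and the replicate block by line 63 (36 higher, 27 lower), with the 14 among them in both.

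The Gm42418 covariate, which overlaps with the difference tested, gave 8 genes (2 higher) and 2909 in line #1.2. It reversed the difference of Rmrp (-2.84), Tfrc (0.067), Rps14 (0.23), Rpl24 (0.17), Igkc (-0.025), Ccnk (-0.23), Psme2 (0.065), Itgam (0.22), Xbp1 (0.21), Hexim1 (-0.014) and Myc (-0.26), none of them called, and the effect of Bhlhe41 in line #1.2 (-0.13). Leaving out a library reversed Myc (-0.076 without library 2 of line #1.1 with DMSO, -0.0027 without library 2 of line #1.2 with DMSO, and up to 0.13 otherwise), Cd274 (0.018 without library 1 of line #1.1 with JQ1, down to -0.63 otherwise), the effect of Gm42418 in line #1.1 (0.42 without library 2 of its controls, -1.02 without library 1) and that of Bhlhe41 in line #1.2 (-0.0020 without library 1 with JQ1, up to 0.098 otherwise). The cause was not tested. Genes with few reads, such as Cd274, have wide intervals.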
